A study of Mus musculus with 8 samples.

Results

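The nuclear genes for the proteins of the mitochondrial ribosome were followed in cultured mouse macrophages. Their members were all genes whose symbol begins with Mrpl or Mrps and a number, 76 of the 23354 symbols in the gene tables: 47 named for the large subunit (Mrpl) and 29 for the small subunit (Mrps). The names were the only criterion, and no measured value entered it. Mitochondria keep ribosomes of their own, which translate the few proteins encoded by mitochondrial DNA, all of them parts of the respiratory chain and the ATP synthase. Every protein of these ribosomes is encoded in the nucleus, made in the cytosol and imported, so the organelle's translation depends on many unlinked nuclear genes. Macrophages exposed to interleukin 4 (IL-4) take up an alternative activation state known for its reliance on oxidative metabolism.

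Bone marrow of 8-week-old C57BL/6J mice was cultured in L929-conditioned medium, a source of macrophage growth factor, and became after 7 days bone marrow-derived macrophages. Cultures were left as controls or given IL-4 at 20 ng/ml for 24 hours. Both genotypes carried floxed alleles of Ern1, the gene for the endoplasmic reticulum stress sensor IRE1 alpha, and 1 of them also carried Lyz2-Cre, a recombinase knocked into the lysozyme 2 gene and active in myeloid cells. The 4 groups were therefore Ern1f/f control, Ern1f/f IL-4, Ern1f/fLyz2-Cre control and Ern1f/fLyz2-Cre IL-4, with 2 libraries each. The Ern1f/f cells were no wild type, since all cultures carried the floxed alleles. Libraries numbered 1 are called set 1 and those numbered 2 set 2; the labels do not say what the number marks. Nor do they say whether libraries came from separate mice, so the p-values measure only the spread between these libraries, which may be technical.

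The titles and the genotype field of the labels disagree in 4 of the 8 libraries, because the field gives Ern1f/f for all of set 1 and Ern1f/fLyz2-Cre for all of set 2; groups follow the titles here. Ern1 stood at 7.43 to 14.3 FPKM (sequenced fragments scaled by transcript length and by library size) in set 1 and 9.11 to 12.7 in set 2, and was higher in the Lyz2-Cre control than in the Ern1f/f control of both sets. With IL-4 it was lower in Lyz2-Cre in set 1 (7.43 against 10.2 FPKM) and higher in set 2 (10.98 against 9.11). The gene-level value does not check the deletion, as the labels do not give the floxed exons. Lyz2 was lower in the libraries titled Lyz2-Cre in both sets, at 10949 against 18113 FPKM in set 1 controls and 2171 against 17415 in set 2 controls. Summed macrophage markers (9 of 10 in the tables) lay between 4511 and 21899 FPKM, and without Lyz2, the locus that carries the Cre, between 2657 and 3786. The 10 fibroblast markers summed to 83.5 to 472 FPKM in set 1 and 2.998 to 8.16 in set 2. Marker sums of neutrophils, dendritic cells, B cells, T or NK cells, mast cells and erythroid cells each stayed at or under 46.7 FPKM. The sets thus stood apart in more than the members described here. Implied library depths were 21526093 to 37917704 fragments, with the fewest in the set 2 library of Ern1f/fLyz2-Cre control and the most in the set 1 library of Ern1f/fLyz2-Cre IL-4.

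All 76 members were expressed at 1 FPKM or more in at least 2 libraries, the filter that left 10934 genes for testing, and each had a single table row with a successful estimate in all 8 libraries. The genes lie on 17 chromosomes. Mean levels over the 8 libraries ran from 4.29 FPKM for Mrpl1 to 277 for Mrps21, with a median of 22.2, and 64 members exceeded the median of the tested genes. Mrps21, a counterpart of bacterial S21, led with 224 to 345 FPKM across libraries. Mrpl52, a large-subunit protein without a bacterial counterpart, followed at a mean of 213, and Mrpl33, the counterpart of bacterial L33, at 119. These 3 genes held 23.9% of the members' summed FPKM. Next came Mrpl42 (89.9 FPKM), Mrpl23 (88.0), Mrpl20 (85.2), Mrps18c (67.2) and Mrpl30 (59.5). At the low end stood Mrpl17 (5.22), Mrps31 (5.13), Mrpl35 (4.67), Mrpl19 (4.63) and Mrpl1, and the ranges over libraries of these 5 genes overlapped.

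**Figure D1:**
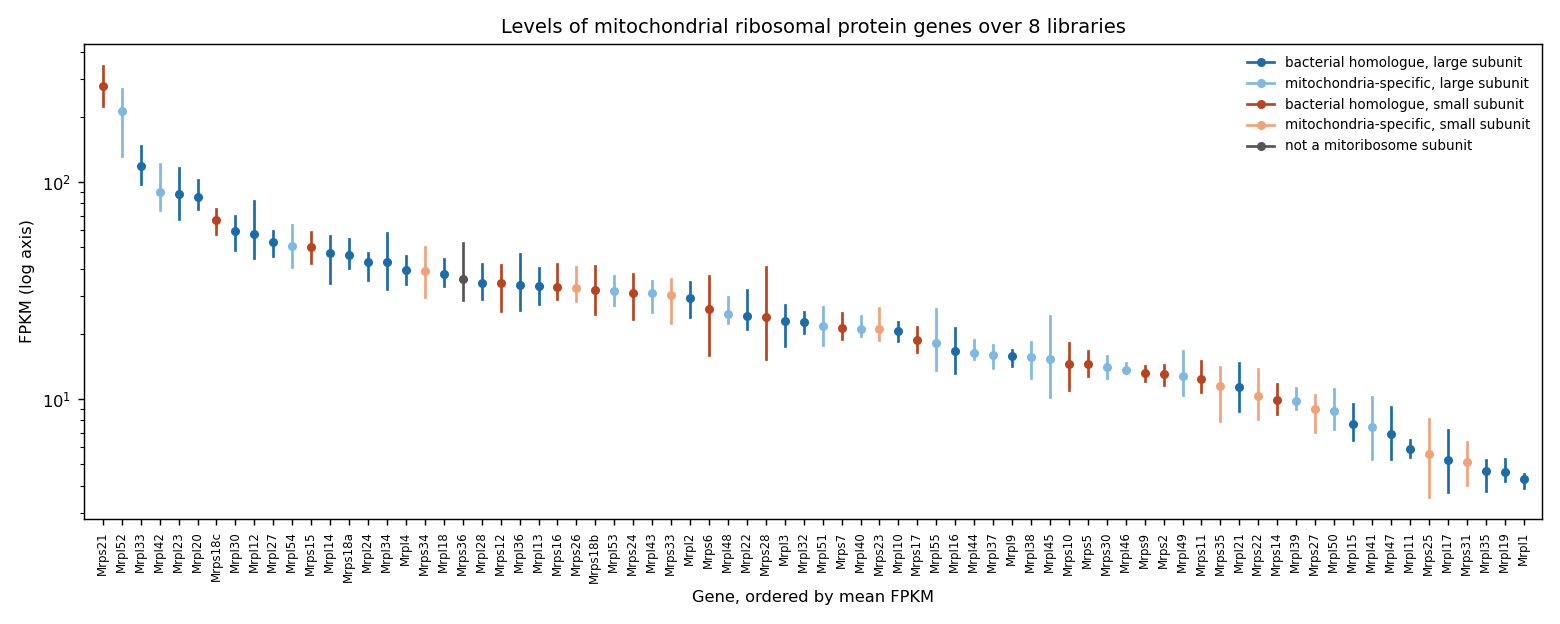
Mean FPKM (point) and lowest to highest of the 8 libraries (bar) for the 76 members on a log axis, ordered by mean and coloured by subunit class. Mrps21, Mrpl52 and Mrpl33 stand above 100 FPKM, and most bars are short beside the 64.6-fold range between members.

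By class, the median of the mean levels was 31.4 FPKM for the 30 large-subunit proteins with bacterial homologues and 23.9 for the 17 such proteins of the small subunit. It was 16.3 for the 19 large-subunit and 11.5 for the 9 small-subunit proteins found only in mitochondrial ribosomes. The classes overlapped widely. A trio of paralogues share the name of bacterial S18: Mrps18a, which sits in the large subunit, averaged 46.4 FPKM, Mrps18b 31.8 and Mrps18c 67.2. Mrps30, small-subunit by name but part of the large subunit, averaged 14.1 FPKM. Mrps36, at 35.9 FPKM, is by current knowledge an adaptor of the 2-oxoglutarate dehydrogenase complex of the citric acid cycle and not a ribosomal subunit, and it is kept here because the name rule takes it in.

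Levels varied little between libraries. The ratio of a member's highest to its lowest library had a median of 1.46 (range 1.11 to 2.67) and was under 1.5 for 43 members. The same ratio had a median of 1.53 over the 7559 tested genes within the members' range of levels. It exceeded 2 for 5 members. Counting error was small beside this: the implied fragments per member and library ran from 106 to 2594, for counting standard errors of 0.14 down to 0.03 on the log2 scale.

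The IL-4 comparison asks how alternative activation altered each gene. Of the 12 genes of an alternative activation list limma called 8 higher with IL-4 averaged over genotypes, and 12 with the replicate number as a block. The called shares of all genes were 0.841% and 12.7%. Arg1, the arginase that marks this state, stood at 0.04 to 1.153 FPKM in controls and at 62.3 to 136 with IL-4. Differences of the mitoribosomal genes were small beside this. In Ern1f/f cells 34 members were higher and 42 lower, with a median log2 difference of -0.02 (all tested genes -0.04). In Ern1f/fLyz2-Cre cells 62 were higher and 14 lower, with a median of 0.14 (all tested genes -0.02). Averaged over the genotypes 52 were higher and 24 lower, with a median of 0.06 (all tested genes -0.03). All differences were fitted with limma on log2(FPKM + 1), a scale that understates changes of low genes.

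No member passed a Benjamini-Hochberg adjusted p of 0.05 in any of these 3 comparisons by limma with the 4 group means alone. The share of all 10934 genes called was 0% in Ern1f/f, 0.0549% in Ern1f/fLyz2-Cre and 0.841% averaged over genotypes, so this fit called few genes of any kind. At an unadjusted p under 0.05 it counted 0 members of 673 genes in Ern1f/f, 9 of 933 in Ern1f/fLyz2-Cre and 9 of 1522 in the average. These are 0%, 11.8% and 11.8% of members, against 6.16%, 8.53% and 13.9% of tested genes. With the replicate number added as a block, the called share of all genes was 2.12%, 3.32% and 12.7%. The blocked fit called 0 members in Ern1f/f, 0 in Ern1f/fLyz2-Cre (smallest adjusted p 0.0577, limma) and 4 in the average, all higher with IL-4: Mrps25, Mrpl50, Mrpl42 and Mrps36. Those 4 are 5.26% of the members, below the share of all genes called. At an unadjusted p under 0.05 the blocked fit counted 2 members of 1779 genes in Ern1f/f, 16 of 2354 in Ern1f/fLyz2-Cre and 16 of 3275 in the average. These are 2.63%, 21.1% and 21.1% of members, against 16.3%, 21.5% and 30.0% of tested genes.

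The 4 called genes and the next by p, Mrpl49 and Mrps22, are shown with their promoters because the IL-4 comparison turns on them. Each sequence runs from 250 bases before to 50 after the RefSeq transcript start (GRCm38.p6, the mm10 assembly), 5′ to 3′ on the gene's strand, which is the minus strand for all 6. Capitals mark the letters of 3 motifs on either strand, CCAAT (or ATTGG) of the NF-Y box, CCGGAAG of ETS factors and AAGATGGC of YY1. The regions are chr6:92183974-92184273 for Mrps25, chr4:49521034-49521333 for Mrpl50, chr10:95501900-95502199 for Mrpl42, chr13:100744610-100744909 for Mrps36, chr19:6057706-6058005 for Mrpl49 and chr9:98601630-98601929 for Mrps22.
Mrps25: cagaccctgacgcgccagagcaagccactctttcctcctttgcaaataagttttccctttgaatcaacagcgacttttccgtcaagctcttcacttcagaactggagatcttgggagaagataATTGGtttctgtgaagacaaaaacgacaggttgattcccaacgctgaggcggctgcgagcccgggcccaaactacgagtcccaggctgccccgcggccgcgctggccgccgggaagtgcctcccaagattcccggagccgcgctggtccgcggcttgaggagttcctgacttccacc
Mrpl50: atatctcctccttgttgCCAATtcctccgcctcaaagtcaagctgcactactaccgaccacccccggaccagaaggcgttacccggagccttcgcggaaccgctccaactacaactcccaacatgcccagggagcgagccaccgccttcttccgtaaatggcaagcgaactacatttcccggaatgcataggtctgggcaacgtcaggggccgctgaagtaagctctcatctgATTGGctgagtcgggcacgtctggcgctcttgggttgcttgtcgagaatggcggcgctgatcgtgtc
Mrpl42: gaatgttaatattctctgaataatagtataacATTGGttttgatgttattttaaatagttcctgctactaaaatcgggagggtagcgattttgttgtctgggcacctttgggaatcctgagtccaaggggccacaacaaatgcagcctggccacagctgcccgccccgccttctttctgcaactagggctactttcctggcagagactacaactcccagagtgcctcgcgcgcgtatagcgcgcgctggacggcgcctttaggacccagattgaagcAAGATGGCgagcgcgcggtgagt
Mrps36: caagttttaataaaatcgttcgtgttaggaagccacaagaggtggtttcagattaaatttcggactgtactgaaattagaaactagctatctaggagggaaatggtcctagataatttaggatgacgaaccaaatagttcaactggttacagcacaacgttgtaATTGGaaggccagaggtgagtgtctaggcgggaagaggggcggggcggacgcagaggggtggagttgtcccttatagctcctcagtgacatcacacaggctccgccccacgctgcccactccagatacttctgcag
Mrpl49: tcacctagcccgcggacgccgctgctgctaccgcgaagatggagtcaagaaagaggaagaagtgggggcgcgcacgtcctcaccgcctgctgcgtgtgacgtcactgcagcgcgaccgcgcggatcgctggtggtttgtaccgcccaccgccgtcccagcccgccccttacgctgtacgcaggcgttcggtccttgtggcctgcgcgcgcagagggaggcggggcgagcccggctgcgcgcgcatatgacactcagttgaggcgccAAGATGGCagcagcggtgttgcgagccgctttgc
Mrps22: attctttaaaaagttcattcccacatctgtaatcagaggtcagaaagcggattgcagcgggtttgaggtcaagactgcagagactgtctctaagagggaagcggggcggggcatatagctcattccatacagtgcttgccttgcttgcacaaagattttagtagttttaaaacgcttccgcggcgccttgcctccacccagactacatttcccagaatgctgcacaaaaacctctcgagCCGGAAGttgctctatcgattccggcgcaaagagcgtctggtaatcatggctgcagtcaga
Mrps25 and Mrps36 held 1 ATTGG each, at -127 and -86 relative to the start. Mrpl50 held CCAAT at -233 and ATTGG at -17. In Mrpl42 an ATTGG lay at -218 and an AAGATGGC at 27 bases past the start, and in Mrpl49 an AAGATGGC at 16. Mrps22 held CCGGAAG at -11. No single motif of the 5 searched (GCGCATGC and CACGTG, the others, had no match) was found in all 6.

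Mrps25 (chr6:92169523-92184023, mm10) is a small-subunit protein without a bacterial counterpart. Its level in set 1 was 5.35 FPKM in Ern1f/f control, 6.67 in Ern1f/f IL-4, 5.38 in Lyz2-Cre control and 8.06 in Lyz2-Cre IL-4. In set 2 it was 4.18, 5.58, 3.53 and 5.72 in the same order. Every IL-4 library lay above every control library, and set 2 lay below set 1 throughout. The log2 difference averaged over genotypes was 0.42 (SE 0.08, adjusted p 0.0204, limma with the block). The table locus of Mrps25 overlaps that of Nr2c2 by 3536 bases, and Nr2c2 stood at 2.01 to 3.94 FPKM; whether reads were split between them was not tested.

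Mrpl50 (chr4:49512597-49521083) belongs to the mitochondria-specific proteins of the large subunit. In set 1 it stood at 7.86 FPKM in Ern1f/f control, 9.32 in Ern1f/f IL-4, 8.33 in Lyz2-Cre control and 11.1 in Lyz2-Cre IL-4, and in set 2 at 7.27, 9.16, 7.48 and 10.4. The IL-4 libraries again lay above all controls, and the sets were close. With the block the difference was 0.33 (SE 0.07, adjusted p 0.0271, limma).

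Mrpl42 (chr10:95480806-95501927), also mitochondria-specific, was among the most abundant members. Set 1 gave 82.1, 85.4, 80.4 and 121 FPKM in the order Ern1f/f control, Ern1f/f IL-4, Lyz2-Cre control and Lyz2-Cre IL-4, and set 2 gave 77.7, 92.1, 74.3 and 106. Both Lyz2-Cre IL-4 libraries were highest. Ern1f/f IL-4 lay just above its control in set 1 and further above it in set 2 (log2 differences 0.06 and 0.24). The blocked difference averaged 0.35 (SE 0.08, adjusted p 0.0416, limma).

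Mrps36 (chr13:100735940-100744659), the dehydrogenase adaptor, followed the same order of groups. It was at 30.9, 32.96, 30.3 and 52.7 FPKM in set 1 and at 31.0, 39.7, 28.6 and 41.5 in set 2. The controls lay within 28.6 to 31.0 and every IL-4 library lay above them. Its difference was 0.43 (SE 0.11, adjusted p 0.0479, limma with the block). Such separation of IL-4 from control libraries was not particular to the called members, as Mrpl18, Mrpl27, Mrpl47 and Mrpl51 also had it. As the called members were picked by p in this comparison, their separation is no further evidence. Its share among all tested genes was not counted.

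**Figure D2:**
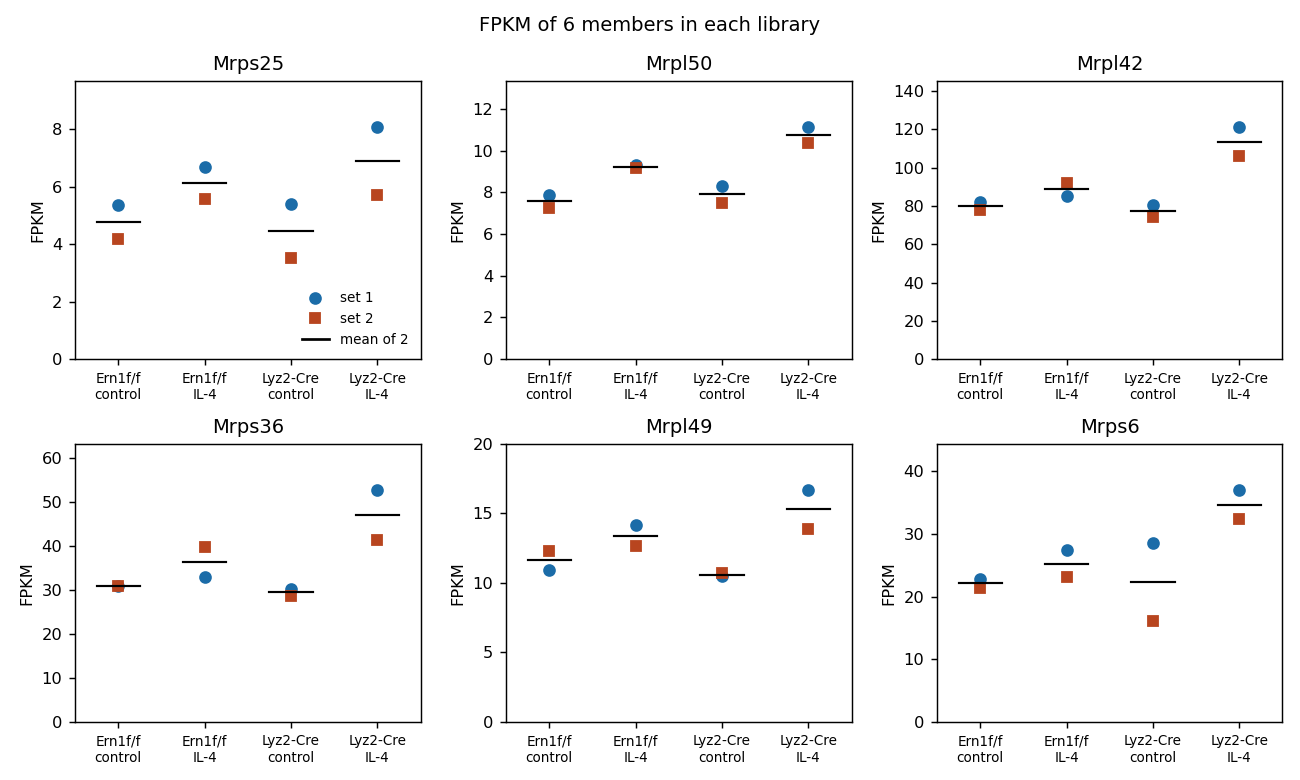
FPKM (linear axis from 0) of Mrps25, Mrpl50, Mrpl42, Mrps36, Mrpl49 and Mrps6 by title group, with circles for set 1, squares for set 2 and a line at the mean of 2. In Mrps25, Mrpl50, Mrpl42, Mrps36 and Mrpl49 every IL-4 library lies above every control, and in Mrps6 the Lyz2-Cre controls differ between sets (28.6 and 16.0 FPKM). The uncalled Mrpl18, Mrpl27, Mrpl47 and Mrpl51, not drawn, had the same separation, and its share among all tested genes was not counted.

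Just short of the threshold stood Mrpl49, a mitochondria-specific large-subunit protein, with controls at 10.49 to 12.3 FPKM and IL-4 libraries at 12.7 to 16.7 (adjusted p 0.0568, limma with the block). Mrps22, mitochondria-specific in the small subunit, came next (adjusted p 0.0748, limma with the block), with 9.53, 12.8, 9.16 and 13.7 FPKM in set 1 and 9.55, 9.24, 8.13 and 10.8 in set 2. Only the Ern1f/f pair of set 2 was not higher with IL-4. Mrps6, the counterpart of bacterial S6, ranged from 16.0 to 28.6 FPKM in controls and 23.0 to 36.999 with IL-4, so its groups overlapped. Its locus shares 29138 bases with Slc5a3, which stood at 0.83 to 1.85 FPKM. The 4 calls depend on single libraries, since leaving 1 out changed which members the blocked fit called. The log2 differences of the 4 called members stayed positive in every such fit. They ran from 0.38 to 0.47 for Mrps25, 0.31 to 0.35 for Mrpl50, 0.29 to 0.41 for Mrpl42 and 0.33 to 0.53 for Mrps36. Each omission leaves 1 library in a group, and the share of all genes called in these fits is not given here.

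The lower side of the IL-4 comparison held no call. The members with the smallest blocked p there were Mrpl52, Mrps24 (the counterpart of bacterial S3), Mrpl33 and Mrpl14. Mrpl52 had a log2 difference of -0.27 (SE 0.11, adjusted p 0.175, limma with the block) and Mrps24 one of -0.25 (SE 0.11, adjusted p 0.198). Mrps24 stood at 30.9, 29.9, 37.6 and 35.6 FPKM in set 1 and at 32.99, 23.5, 32.0 and 23.8 in set 2, so the lower values with IL-4 came mostly from set 2.

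Within each set the IL-4 difference could be taken separately for each genotype. In set 1, 54 of 76 members were higher with IL-4 in Ern1f/f (median 0.10) and 65 in Lyz2-Cre (median 0.22). In set 2, 14 were higher in Ern1f/f (median -0.15) and 49 in Lyz2-Cre (median 0.07). Of all tested genes, 49.7% and 40.6% were higher in set 1 and 37.2% and 56.8% in set 2, so the members lay above the background in set 1 in both genotypes, and below it in Ern1f/f of set 2. The direction for Ern1f/f cells therefore differed between the sets. The fibroblast marker sum was lower with IL-4 in set 1, 83.5 against 172 FPKM in Ern1f/f and 215 against 472 in Lyz2-Cre, and stood at 8.16 and 8.15 and at 3.83 and 2.998 in set 2; its part in the members' values was not tested. Of the 9 tested macrophage markers 8 were lower with IL-4, while 44.8% of all tested genes were higher. Limma called 3 of the lower markers with the block (12.7% of all genes called) and 0 without it (unadjusted p under 0.05 for 2). Without Lyz2 the marker sum went with IL-4 in set 1 from 3786 to 2876 FPKM in Ern1f/f and from 3682 to 2716 in Lyz2-Cre. In set 2 it went from 2794 to 2657 in Ern1f/f and from 2744 to 2939 in Lyz2-Cre. Of the 9 dendritic cell markers only Batf3 passed the filter, at 2.04 to 17.99 FPKM in controls and 27.8 to 45.6 with IL-4, while the other 8 summed to 0.62 to 1.67 FPKM in every library. The part of these markers was not tested either. In bulk RNA, fewer cells of a type and less RNA per cell cannot be told apart.

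**Figure D3:**
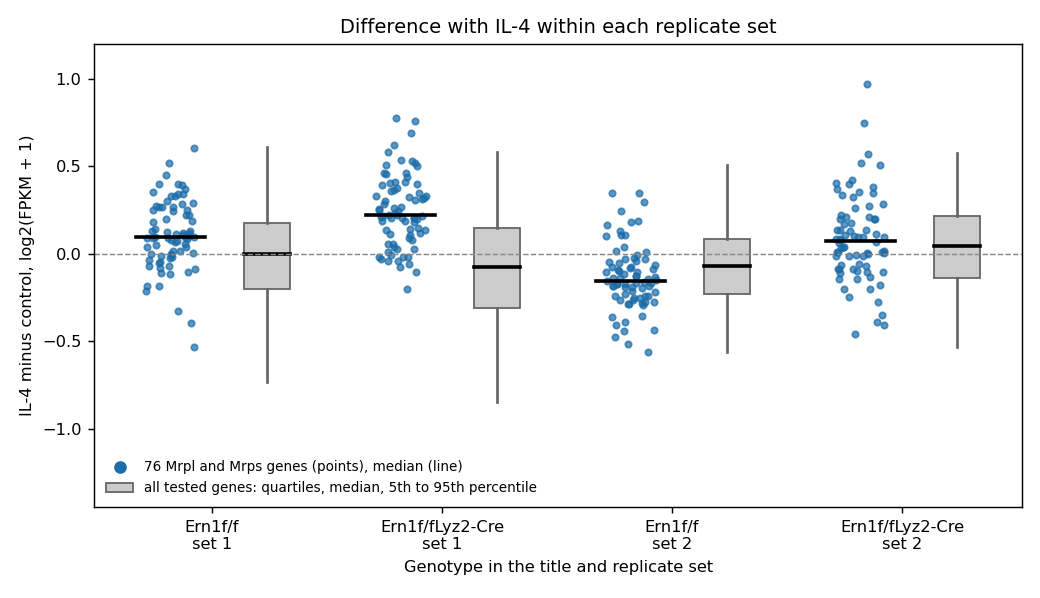
Difference of log2(FPKM + 1) between the IL-4 and control library of the same genotype and set, for the 76 members (points, with median line) and for all tested genes (grey box of quartiles with median, whiskers from the 5th to the 95th percentile). Medians of the members are 0.10, 0.22, -0.15 and 0.07 from left to right.

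The same direction in all 4 of these differences was seen for 12 members on the higher side, 15.8% of members against 17.0% of all tested genes. They were Mrpl18, Mrpl27 (whose bacterial counterpart reaches into the peptidyl transferase centre), Mrpl36, Mrpl41, Mrpl42, Mrpl47, Mrpl49, Mrpl50, Mrpl51, Mrps6, Mrps25 and Mrps36. Only 5 members were lower in all 4, Mrpl14, Mrpl28, Mrpl33, Mrpl52 and Mrps24, 6.58% against 23.5% of all tested genes. Another 12 (15.8% against 5.83%) were higher in both differences of set 1 and lower in both of set 2: Mrpl2, Mrpl21, Mrpl22, Mrpl34, Mrpl38, Mrpl45, Mrpl54, Mrpl55, Mrps10, Mrps26, Mrps30 and Mrps34. By class, the median IL-4 difference averaged over genotypes was 0.06 for the large-subunit and 0.02 for the small-subunit proteins with bacterial homologues, 0.03 for the mitochondria-specific large-subunit proteins and 0.11 for the mitochondria-specific small-subunit proteins.

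If the genotype field is used in place of the titles, each set becomes a genotype and its 4 libraries give an IL-4 comparison within the set. In set 1 limma then called 10 members higher and none lower, 13.2% of members against 20.7% of all genes. The set 1 calls were led by Mrps28 (the counterpart of bacterial S1; log2 difference 0.68, SE 0.13, adjusted p 0.0113) and Mrpl47 (the counterpart of bacterial L29; 0.61, SE 0.09, adjusted p 0.00383). Mrps28 stood at 22.7 and 23.7 FPKM in the set 1 controls and at 35.0 and 40.8 with IL-4, while in set 2 its controls at 19.7 and 15.3 and IL-4 libraries at 16.2 and 17.7 overlapped. Mrpl12, the stalk protein that recruits translation factors, was also called in set 1 (0.46, SE 0.11, adjusted p 0.0254), with 53.5 and 59.1 FPKM in controls and 73.6 and 81.5 with IL-4. In set 2 limma called 4 members against 11.6% of all genes, Mrps25 higher and Mrpl52, Mrpl45 and Mrps18a lower. The difference of the 2 responses, set 2 minus set 1, had a median of -0.22 over the members (all tested genes 0.03) and was negative for 59 of 76. That difference was called by limma for 0 members and for 0.969% of all genes. An unadjusted p under 0.05 was reached by 16 members and 1917 genes, 21.1% of members against 17.5% of tested genes.

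Between genotypes no member was called by limma, with or without the block. In controls 9 members were higher and 67 lower in Lyz2-Cre, with a median log2 difference of -0.06 (all tested genes 0.00 after rounding). The sets disagreed on this direction: in set 1, 49 members were higher and 27 lower (median 0.04), and in set 2, 7 were higher and 69 lower (median -0.16). Without Lyz2-Cre control replicate 2 the median was 0.00419. With IL-4, 66 were higher and 10 lower, with a median of 0.12 (all tested genes 0.02). The called share of all genes was 0% in both without the block, and 0% in controls and 0.00915% with IL-4 when the block was added. At an unadjusted p under 0.05 the fit without the block counted 0 members of 27 genes in controls and 2 of 42 with IL-4. The latter is 2.63% of members against 0.384% of tested genes. With the block it was 0 of 137 and 4 of 189, the latter 5.26% against 1.73%.

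The 2 members counted with IL-4 without the block were Mrps33 and Mrpl42. Mrps33, a mitochondria-specific small-subunit protein, stood at 30.0 FPKM in Ern1f/f control, 22.5 in Ern1f/f IL-4, 30.4 in Lyz2-Cre control and 35.3 in Lyz2-Cre IL-4 of set 1, and at 32.3, 28.2, 27.0 and 35.9 in set 2. Its IL-4 libraries were lowest or next to lowest in Ern1f/f and highest in Lyz2-Cre, in each set. The IL-4 response of Mrps33 was higher in Lyz2-Cre than in Ern1f/f by 0.60 on the log2 scale (SE 0.21, adjusted p 0.99999, limma), and the within-set values were 0.60 and 0.59. Over the members the same interaction was positive for 72 of 76, with a median of 0.18 (all tested genes 0.01). It was called for 0 members and 0% of genes with either fit. Without the block an unadjusted p under 0.05 was reached by 1 member and 19 genes (1.32% of members against 0.174% of tested genes). With the block it was 3 members and 103 genes (3.95% against 0.942%).

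A single library weighs on these genotype values. Lyz2-Cre IL-4 replicate 1 was the highest library for 41 of 76 members (53.9%, against 15.0% of all tested genes), and the members' FPKM summed to 3073 there and to 2248 to 2665 in the other 7 libraries. Without it the median difference between genotypes with IL-4 went from 0.12 to -0.02, that for IL-4 in Lyz2-Cre cells from 0.14 to 0.02, and that of the interaction from 0.18 to 0.05. Those fits set the remaining set 2 library against means of both sets. Within set 2 alone, which does not hold that library, the median was 0.06 for genotype with IL-4 (56 of 76 members higher, against 67.1% of all genes), 0.07 for IL-4 in Lyz2-Cre cells and 0.20 for the interaction (69 of 76 positive, against 72.8% of all genes). It was also the most deeply sequenced library; the part of depth in these values was not tested. Lyz2-Cre control replicate 2, with the lowest depth, was the lowest library for 24 members (31.6%, against 21.6% of all genes).

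**Figure D4:**
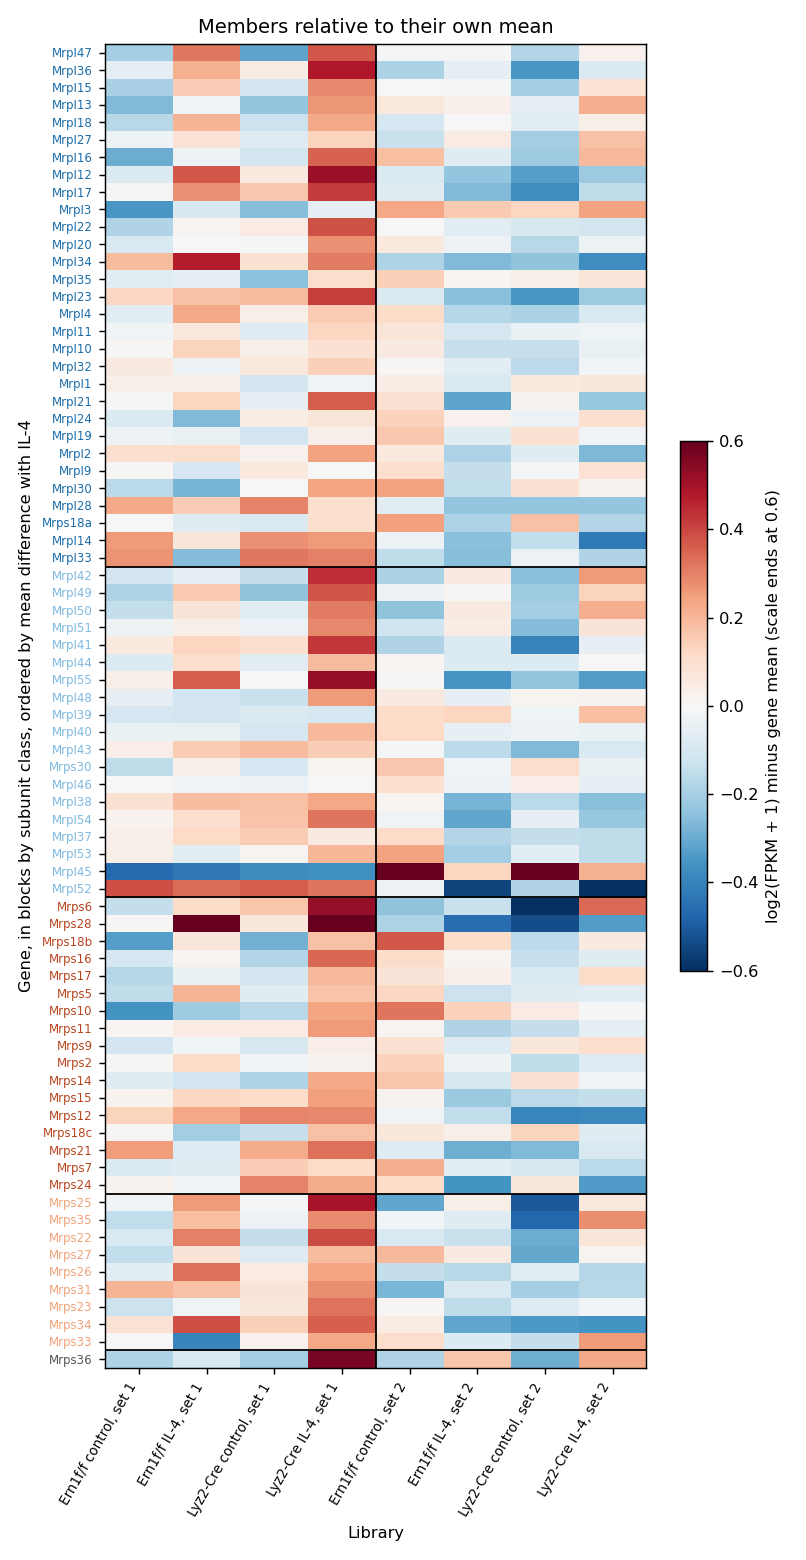
Each member's log2(FPKM + 1) in the 8 libraries minus its own mean, red above and blue below, with genes in blocks by subunit class (label colours as in the plot of levels, Mrps36 last) and libraries by set. The Lyz2-Cre IL-4 library of set 1 is red for most genes, and Mrpl52, Mrpl45 and Mrps28 differ most between the left and right blocks of libraries.

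The largest differences among members lay between the sets. With the treatment and genotype groups in the fit, limma called 18 members between set 2 and set 1, 2 higher and 16 lower in set 2, which is 23.7% of members against 33.4% of all genes. Mrpl45, which anchors the ribosome to the inner membrane beside the exit tunnel, stood at 10.3, 10.6, 10.98 and 11.1 FPKM in set 1 and at 24.2, 16.0, 22.6 and 17.0 in set 2 (order of groups as above). All 4 set 2 libraries lay above all of set 1, and within set 2 the IL-4 libraries were the lower ones. Its log2 difference was 0.82 (SE 0.12, adjusted p 0.00431, limma). Mrpl3, the counterpart of bacterial L3, was higher in set 2 by 0.38 (SE 0.08, adjusted p 0.0160, limma), at 24.98 to 27.0 FPKM against 17.6 to 21.8.

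On the lower side Mrpl52 stood at 257 to 268 FPKM in set 1 and 131 to 199.96 in set 2, a log2 difference of -0.70 (SE 0.11, adjusted p 0.00588, limma). Mrps28 had the largest such difference, -0.76 (SE 0.17, adjusted p 0.0162, limma), from 22.7 to 40.8 FPKM in set 1 to 15.3 to 19.7 in set 2. Mrpl34, the counterpart of bacterial L34, stood at 44.7 to 58.6 FPKM in set 1 and 32.1 to 36.7 in set 2. Other called members lower in set 2 included Mrps12 of the decoding centre (-0.47), Mrpl23 at the exit tunnel (-0.45), Mrpl12 (-0.43) and Mrps21 (-0.36). In all, 3 members lay wholly above (Mrpl3, Mrpl39, Mrpl45) and 19 wholly below in set 2, while 31.8% of all tested genes had sets that did not overlap.

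The count of set calls depends on libraries and settings. Leaving out single libraries changed it, while log2 differences ran from 0.71 to 0.91 for Mrpl45 and from -0.80 to -0.62 for Mrpl52. For Mrpl34 they ran from -0.60 to -0.46 and for Mrps31 from -0.40 to -0.33. Without a filter on low values the count was 1 (Mrpl28), with Mrpl45 still at 0.82 (adjusted p 0.0622, limma). Scaling by median-ratio size factors moved the median of all genes from -0.107 to -0.00729 and left 12 calls, 3 of them higher. The share of all genes called in these fits is not given here. All 8 tested fibroblast markers were lower in set 2 (median log2 difference -2.84); their part was not tested.

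**Figure D5:**
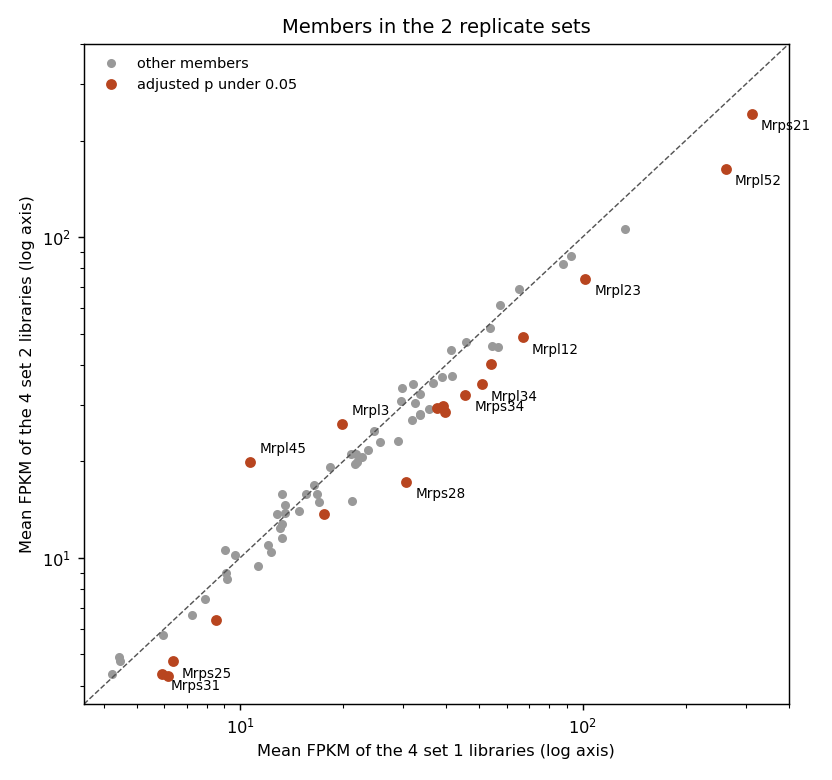
Mean FPKM of each member over the 4 set 2 libraries against the 4 set 1 libraries on log axes, with members called by limma (adjusted p under 0.05) in red and the line of equality dashed. Mrpl45 and Mrpl3 lie above the line, and Mrps28, Mrpl52 and Mrpl34 among the called genes below it.

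Promoters of the whole family were read next. RefSeq gave 73 promoters for 67 of the 76 members. CCGGAAG (ETS), on either strand, was in 32.9% of them, against 8.86% of all 32851 promoters and 18.5% of the 10488 promoters of tested genes. AAGATGGC (YY1) was in 16.4%, against 2.75% and 4.81%. GCGCATGC, the core of the NRF1 motif, was in 10.96%, against 2.71% and 5.51%. CCAAT was in 41.1%, against 37.4% and 37.7%, and the E-box CACGTG in 9.59%, against 7.15% and 10.4%. No motif contains another, although CCGGAAG and AAGATGGC can share the bases AAG where they meet. Median GC content was 58.3% for the members, 52.7% for all promoters and 60.7% for those of tested genes. A match of letters is not a bound site.

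Many members share a promoter region with a neighbour. In GENCODE release M21, 17 of 76 (22.4%) were found with a protein-coding gene starting on the opposite strand within 1000 bases. The share was 11.1% of tested and 6.79% of all protein-coding genes. The 17 do not hold Mrpl46 (chr7:78775341-78783089) and Mrps11 (chr7:78783131-78792988), members whose loci lie next to each other, so the count may be too low. Mrpl49 starts 59 bases from Fau, which encodes a cytosolic ribosomal protein and stood at 1000 to 1458 FPKM in every library. Mrpl50 starts 83 bases from Zfp189, which stood at 0.87 to 1.32 FPKM. Mrps12 lies 172 bases from Sars2, the mitochondrial seryl-tRNA synthetase (3.09 to 5.07 FPKM), and Mrps27 81 bases from Ptcd2 (11.7 to 16.5 FPKM). In these examples the partner levels ran from far above to far below the member's own.

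Other genes of mitochondrial translation were read from lists. With the block and averaged over genotypes, IL-4 called 1 of 15 translation factors (Lrpprc, which stabilises mitochondrial messenger RNAs, 0.36, SE 0.09, adjusted p 0.0428, limma), 1 of 27 assembly and rRNA modification genes (C1qbp, 0.45, SE 0.09, adjusted p 0.0274) and 1 of 10 genes of mitochondrial transcription and genome maintenance (Ssbp1, the mitochondrial single-stranded DNA binding protein, 0.46, SE 0.09, adjusted p 0.0241), all higher. Each count is a smaller share of its list than the 12.7% of all genes called. It called 0 of 22 genes in a list of mitochondrial tRNA synthetases and 0 of 7 mitoribosomal proteins with other symbols. The synthetase list also holds the amidotransferase subunits Pet112, Gatc and Qrsl1. An unadjusted p under 0.05 was reached by 3 genes of that list (Rars2, Pet112 and Gatc) and 2 of the 7. Without the block limma called 0 genes in these 5 lists, with an unadjusted p under 0.05 for 1 or 2 genes in each.

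The mitochondrial ribosome makes a few subunits of the respiratory chain, and nuclear genes make the rest. A list of nuclear-encoded core subunits of the respiratory chain and ATP synthase held 25 genes. All 25 had a positive IL-4 difference, while 44.8% of all tested genes were higher. Their median was 0.32 (all tested genes -0.03). The blocked fit called 7 of them (28.0% against 12.7% of all genes), while the fit without the block called 0 (unadjusted p under 0.05 for 15). Sdha, a subunit of succinate dehydrogenase, stood at 69.7 to 85.3 FPKM in controls and 101 to 105 with IL-4. Atp5a1, the alpha subunit of the ATP synthase, stood at 197 to 238 and 271 to 302. The corresponding median for the 76 members was 0.06; the difference between the lists was not tested. Among 12 tested regulators of mitochondrial biogenesis the blocked fit called 3 higher and 1 lower, beside 12.7% of all genes. The fit without the block called 0 of them (0.841% of all genes), with an unadjusted p under 0.05 for 4. Pparg, a nuclear receptor of lipid metabolism, stood at 11.6 to 30.4 FPKM in controls and 26.9 to 63.9 with IL-4, so its groups overlapped across sets. Within each set they were apart, at 29.7 to 30.4 against 58.7 to 63.9 in set 1 and 11.6 to 12.8 against 26.9 to 39.1 in set 2. Ppard, a related receptor, was the lower one, at 10.2 to 13.7 FPKM in controls and 6.93 to 8.29 with IL-4. Myc, a growth regulator, stood at 7.23 to 11.4 FPKM in controls and 15.3 to 32.1 with IL-4. Ppargc1b, a coactivator of nuclear genes for mitochondria, stood at 1.21 to 2.83 FPKM and 4.41 to 6.63. Over both sets together the groups did not overlap for Ppard, Myc or Ppargc1b. These genes were named for their small p in this same comparison. The share of all tested genes with such separation was not counted.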

How the data were processed

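Messenger RNA was measured by RNA sequencing in 8 libraries, and the authors deposited 1 gene table per library with FPKM values and their confidence limits. Processing by the authors named TopHat 1.4.1, Cufflinks 1.3.0 and the mm10 assembly, per the submitters' processing notes. Where the gene models came from, and whether strand was used, is not given in the sources used here. Each table has 23838 rows and 23354 symbols, and FPKM of rows sharing a symbol were summed.

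From these FPKM, log2(FPKM + 1) was computed for 10934 genes that reached 1 FPKM in 2 or more libraries. Group means of the 4 title groups were compared by linear models (limma 3.58.1, R 4.3.3; two-sided moderated tests whose prior variance followed the mean), with Benjamini-Hochberg adjustment over all tested genes and a threshold of 0.05. There were 6 comparisons of the title groups, and 1 of the sets, whose fit holds both group and replicate number. The replicate number was also tried as a block. Deviations of same-numbered libraries from their group means correlated over all genes at r = 0.69 to 0.83 in the 6 pairs of groups (0.60 to 0.80 over the members), while the labels do not say what the number marks. The fit was tried on simulated data that gave every gene the same spread and added a shift between sets. Of 100 genes changed by 1 on the log2 scale, 74 were recovered without the block and 100 with it. False calls numbered 0 and 11. As real genes differ in spread, these counts do not tell how often the fits err on the real data. Depth was inferred from the width of the deposited confidence limits; the standard errors taken from it cover counting error only. Other pseudocounts (0.1 and 5), filters, scalings, the genotype field and leaving out libraries were tried.

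Members are all symbols of the name rule. Named genes are, in each comparison, up to 12 called in each direction, or the 4 with the smallest p in a direction with fewer than 4 calls; the 8 highest and 5 lowest by level; members named for their role; and up to 4 per other list. Promoters printed are those of the 6 members leading the blocked IL-4 fit. Members and lists were chosen with earlier results of these data known. Promoter sequences are from RefSeq (GRCm38.p6) and neighbouring starts from GENCODE release M21. Python 3.11.15 with matplotlib 3.10.9 drew the figures.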

Additional observations from a re-analysis of the deposited data

How the results depend on the processing

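Values are members called by limma (adjusted p under 0.05) or log2 differences. With the replicate block, the IL-4 comparison averaged over genotypes had 4 called members in place of 0, and 3 with the block and either median-ratio scaling or quantile normalization (block and scaling together were added after seeing the data). With the block and quantile normalization IL-4 in Ern1f/fLyz2-Cre had 1. The block changed no other count of called members among the title comparisons. Groups from the genotype field gave 10 calls and a median of 0.17 for IL-4 in Ern1f/f, 4 calls and -0.048 for IL-4 in Ern1f/fLyz2-Cre, and -0.22 for the interaction, also added after seeing the data. Under that field Mrpl53 (0.042) and Mrps18a (0.058) changed sign for IL-4 in Ern1f/f, and Mrpl16 (-0.29) and Mrps36 (-0.00166) in the interaction. The cause was not tested. Without a filter on low values the set comparison had 1 call in place of 18, with the log2 difference of Mrpl45 unchanged at 0.82.

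Leaving out single libraries, with or without the block, gave 0 to 2 called members for IL-4 averaged over genotypes and 5 to 18 for the sets. Medians ranged from -0.16 to 0.12 for IL-4 in Ern1f/f, -0.014 to 0.12 for IL-4 averaged over genotypes, -0.19 to 0.064 for genotype in controls, 0.021 to 0.28 for IL-4 in Ern1f/fLyz2-Cre, -0.021 to 0.26 for genotype with IL-4 and -0.14 to 0.33 for the interaction. The interaction ranges include 1 fit by the genotype field, without Lyz2-Cre IL-4 replicate 1, which gave the -0.14; with the title groups the median ran from 0.018 to 0.33. These omissions changed the sign of uncalled members: for IL-4 in Ern1f/fLyz2-Cre, Mrpl14 (-0.49 to 0.19), Mrpl45 (-0.68 to 0.30), Mrpl52 (-0.73 to 0.23), Mrps18a (-0.29 to 0.12) and Mrps24 (-0.52 to 0.037); for genotype in controls, Mrpl22 (-0.14 to 0.28), Mrpl33 (-0.13 to 0.29), Mrpl50 (-0.012 to 0.12), Mrpl53 (-0.36 to 0.036), Mrps18b (-0.60 to 0.11), Mrps24 (-0.12 to 0.35), Mrps26 (-0.035 to 0.23) and Mrps27 (-0.46 to 0.026). With IL-4 the genotype difference did so for Mrpl34 (-0.50 to 0.23), Mrps12 (-0.43 to 0.25), Mrps2 (-0.14 to 0.00295) and Mrps26 (-0.30 to 0.20), and the interaction for Mrpl16 (-0.096 to 0.72), Mrpl18 (-0.25 to 0.089), Mrpl34 (-0.44 to 0.31), Mrps26 (-0.40 to 0.10) and Mrps30 (-0.32 to 0.15).

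Groups of 2 libraries limit every comparison. Where an omission left 1 library in a group, it was taken to vary like the other groups. Gene-level FPKM cannot part overlapping loci, which 9 members have.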
